A study of Homo sapiens with 24 samples.

Results

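The 34 genes described here encode proteins of the nucleolus: RNA polymerase I and its cofactors, the proteins of the small nucleolar ribonucleoproteins, and the factors that assemble the small and large ribosomal subunits. They were taken as a named list, and each was looked up among the 20037 protein-coding genes of a RefSeq table on the same genome build as the peaks (GRCh38), where all 34 were found. A gene was counted in a library when a deposited peak lay within 1 kb of either end of its record. Of the 34 genes, 8 had such a peak in all 21 libraries made with an antibody to a target, 24 in 1 to 20 of them, and 2 in none.

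The libraries came from CUT&RUN, in which an antibody tethers a nuclease to chromatin in nuclei and the released DNA fragments are sequenced. The cells were HUDEP-2, an immortalised line of human erythroid progenitors that expands with doxycycline, here with SCF, erythropoietin and dexamethasone in the medium of every clone and no further treatment. Each of 3 edited lines is 1 clone: in clone T the C-terminus of TR4, a nuclear receptor encoded by NR2C2, has 3FLAG and 3MYC tags, in clone B the transcriptional repressor BCL11A has 3HA and 3MYC tags, and clone TB has both edits. There were 3 libraries for each of 7 combinations of antibody and clone (MYC or TR4 in T, MYC or HA in B, and MYC, HA or TR4 in TB), and 1 IgG library per clone. Libraries of cells without a tag were not analysed here. Whether replicates were grown as separate cultures is not stated in the labels. The p-values below measure the spread between libraries, which may be technical, and not that between clones.

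The design gives a pair of comparisons. The first asks how often each gene had a peak for each target. Its 9 TR4-directed libraries are all those of clone T together with the TR4 antibody of clone TB, and its 9 BCL11A-directed libraries are all those of clone B together with the HA antibody of clone TB. The MYC antibody of clone TB meets the tag of both proteins and stayed out of it. Most libraries of each target come from a clone of their own, so target cannot be told apart there from clone and antibody. The second sets the 9 MYC-antibody libraries against the 12 libraries of the TR4 and HA antibodies, clone by clone, because an antibody to the MYC tag may also meet the cell's own MYC protein, for which ribosome biogenesis genes are a classic set of targets.

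Ribosomes are made in the nucleolus, where RNA polymerase I transcribes the ribosomal DNA repeats into one long precursor. Box C/D and box H/ACA small nucleolar ribonucleoproteins modify that RNA, the small-subunit processome cuts and folds its 5′ part, and a further set of factors builds the large subunit. Red cell precursors depend on this output, and inherited faults in ribosome production are a known cause of anaemia. MYC binds DNA as a dimer with MAX at the E-box, while nuclear receptors such as TR4 bind repeats of a short motif.

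Promoter windows of 300 bases (250 before a RefSeq transcription start and 50 from it on, GRCh38.p14) were matched for 28 of the 34 genes. NOP58, RRS1, RRP1B, RRP12, BOP1 and NOLC1 had no entry. The 6 windows below are those the results turn on: the one gene whose peaks differed between targets in the test by gene (UTP4), 2 genes that differed in the test by region (NOP14 and DDX21), the gene ranked highest in the BCL11A-directed lists (IMP4), a gene with a peak in every target library and high percentiles in the TR4-directed ones (NHP2), and the gene with the largest excess of MYC-antibody libraries (WDR12). Sequences are from RefSeq and read 5′ to 3′ on the gene's strand, with the E-box CACGTG in capitals. UTP4 is chr16:69132399-69132698 (plus strand), NOP14 chr4:2963357-2963656 (minus), DDX21 chr10:68955920-68956219 (plus, the first of its 2 starts), IMP4 chr2:130342647-130342946 (plus, the first of 2 starts), NHP2 chr5:178153836-178154135 (minus) and WDR12 chr2:202911624-202911923 (minus).
UTP4: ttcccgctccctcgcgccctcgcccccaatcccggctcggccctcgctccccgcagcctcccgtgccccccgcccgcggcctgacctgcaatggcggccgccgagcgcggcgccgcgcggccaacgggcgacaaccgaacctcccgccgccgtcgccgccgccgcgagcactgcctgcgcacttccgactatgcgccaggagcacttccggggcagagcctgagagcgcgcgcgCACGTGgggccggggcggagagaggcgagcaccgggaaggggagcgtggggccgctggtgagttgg
NOP14: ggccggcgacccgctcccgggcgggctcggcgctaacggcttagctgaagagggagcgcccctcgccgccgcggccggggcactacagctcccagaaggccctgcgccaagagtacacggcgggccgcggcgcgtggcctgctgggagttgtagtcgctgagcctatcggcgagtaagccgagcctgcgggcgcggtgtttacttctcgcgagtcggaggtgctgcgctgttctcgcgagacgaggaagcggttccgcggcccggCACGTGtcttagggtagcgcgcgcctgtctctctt
DDX21: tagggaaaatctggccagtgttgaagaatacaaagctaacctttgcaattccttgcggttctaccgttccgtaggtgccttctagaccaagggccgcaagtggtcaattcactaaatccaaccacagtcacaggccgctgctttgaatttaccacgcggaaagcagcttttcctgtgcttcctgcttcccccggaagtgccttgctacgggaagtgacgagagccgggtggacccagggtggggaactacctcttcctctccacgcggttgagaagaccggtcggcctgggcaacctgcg
IMP4: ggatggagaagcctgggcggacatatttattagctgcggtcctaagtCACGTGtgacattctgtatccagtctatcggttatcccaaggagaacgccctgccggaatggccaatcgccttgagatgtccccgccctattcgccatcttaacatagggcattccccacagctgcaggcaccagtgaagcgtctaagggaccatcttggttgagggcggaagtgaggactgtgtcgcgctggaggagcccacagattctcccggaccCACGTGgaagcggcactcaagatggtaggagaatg
NHP2: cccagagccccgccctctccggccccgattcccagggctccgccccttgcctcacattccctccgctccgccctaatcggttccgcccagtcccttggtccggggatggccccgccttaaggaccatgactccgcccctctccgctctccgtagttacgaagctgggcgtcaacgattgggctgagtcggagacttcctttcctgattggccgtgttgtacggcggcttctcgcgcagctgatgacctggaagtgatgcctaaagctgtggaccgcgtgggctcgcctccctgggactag
WDR12: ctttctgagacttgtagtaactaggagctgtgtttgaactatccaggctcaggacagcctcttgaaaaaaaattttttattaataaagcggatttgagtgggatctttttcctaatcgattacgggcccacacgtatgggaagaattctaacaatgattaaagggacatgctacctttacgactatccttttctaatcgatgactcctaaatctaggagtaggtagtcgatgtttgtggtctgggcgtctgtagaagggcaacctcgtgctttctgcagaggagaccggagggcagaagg
The UTP4 window holds 1 E-box and NOP14 holds 1, IMP4 holds 2, and the windows printed for DDX21, NHP2 and WDR12 hold none.

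The E-box was common in these promoters. It was found in 15 of the 28 matched genes (53.6%), against 10.9% of the 15843 protein-coding genes of the promoter table, counting a gene once if any of its 300-base windows held the motif on either strand. By single windows the shares were 41.7% of 36 and 8.34% of 22199. The ETS motif CCGGAAG was found in 10 genes (35.7% against 16.5%) and the GC box GGGCGG in 22 (78.6% against 64.3%). Motifs of the factors profiled here were less frequent than the E-box: the nuclear receptor motif AGGTCA was in 5 genes (17.9% against 15.2%), its direct repeat with 1 base between, which contains AGGTCA, in 0 (0.0316% of all genes), and the BCL11A motif TGACCA in 2 (7.14% against 12.1%). These are matches of letters in a window, on both strands, and not measured sites.

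Peaks at these genes were frequent for every antibody and both targets. With the MYC antibody in clone T, 23 of the 34 genes had a peak in 2 or 3 of the 3 libraries, where the share of all protein-coding genes was 27.2%. The TR4 antibody had 18 in clone T (25.5% of all genes) and 19 in clone TB (28.0%). The BCL11A-directed groups were higher: 27 genes with the MYC antibody in clone B (44.8% of all genes), 29 with the HA antibody in clone B (42.5%) and 24 with the HA antibody in clone TB (39.3%). The MYC antibody in clone TB, where both proteins are tagged, had 27 (43.3%). In each of these 7 groups the share among the 34 genes, 52.9% to 85.3%, lay above that of all genes, which is a description without a test because the list was chosen with earlier results known. The lists differ in length, from 4621 to 31432 peaks, and replicate 3 had the shortest list of every group. When every list was shortened to 4621 peaks, the strongest by −log10 q, the TR4-directed groups kept peaks at 12 to 13 of the 34 genes, the BCL11A-directed groups at 6 to 7 and the MYC antibody of clone TB at 10, beside 12.7% to 16% of all genes. At equal list length the TR4-directed counts were the higher ones.

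The order of the groups was alike when windows were set at transcription starts, 1 kb to each side, for the 28 genes of the promoter table. The TR4-directed groups then had peaks at 19 (MYC in clone T, 29.5% of the 15843 genes of that table), 14 (TR4 in T, 27.9%) and 17 (TR4 in TB, 30.5%). The BCL11A-directed groups had 24 (MYC in clone B, 47.7%), 25 (HA in B, 45.4%) and 21 (HA in TB, 42.1%), and MYC in clone TB had 24 (46.2%).

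**Figure D1:**
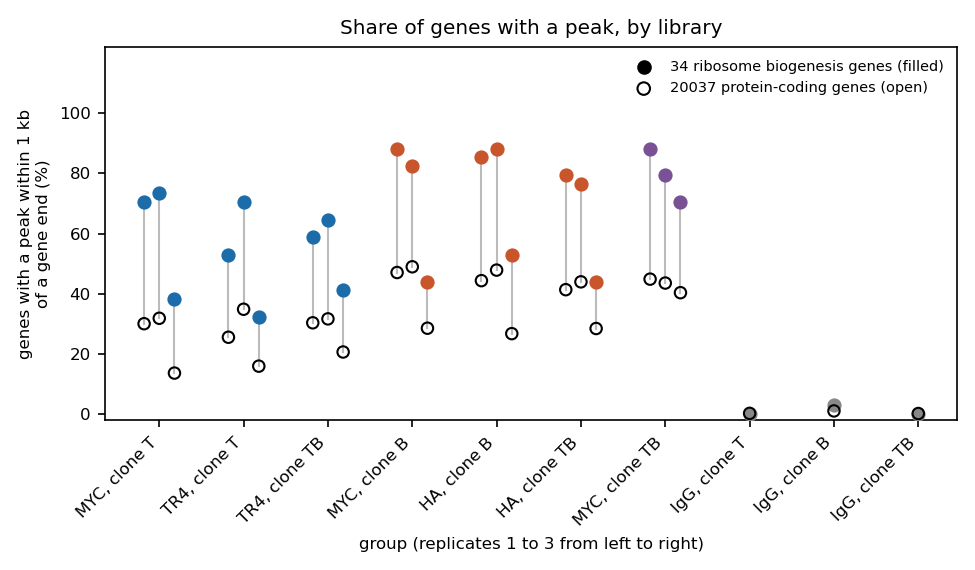
Percent of genes with a peak within 1 kb of a gene end (vertical axis) in each library, by antibody and clone (horizontal axis), with the 34 ribosome biogenesis genes as filled points and the 20037 protein-coding genes as open points. The filled point lies above the open one in all 21 target libraries, and replicate 3 is the lowest filled point of each group; 1 member had a peak in an IgG library.

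IgG peaks were rare at these genes. NOP16 had a peak in the IgG library of clone B, at the 3′ side of the gene and 4341 bases from its start, and no other member had one in any of the 3 IgG lists of 2036 to 4828 peaks. The region over the NOP16 start (18 of 21 target libraries) and the one 334 bases from it (21 of 21), which lies nearer to the start of HIGD2A, had no IgG peak.

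The 8 genes with a peak in all 21 target libraries (6.96% of all genes had that) came from each of the 6 roles. They were MYBBP1A, a cofactor at RNA polymerase I; FBL (fibrillarin), the methyltransferase of box C/D particles; NHP2, a core protein of box H/ACA particles; RRP9, which binds the U3 small nucleolar RNA; NOP2, NOP16 and RRS1 of the large subunit pathway; and NOLC1, a nucleolar phosphoprotein that works with small nucleolar particles. No peak at a record end was found for PES1 and BYSL (41.5% of all genes had none), and the closing section gives the values at their starts.

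**Figure D2:**
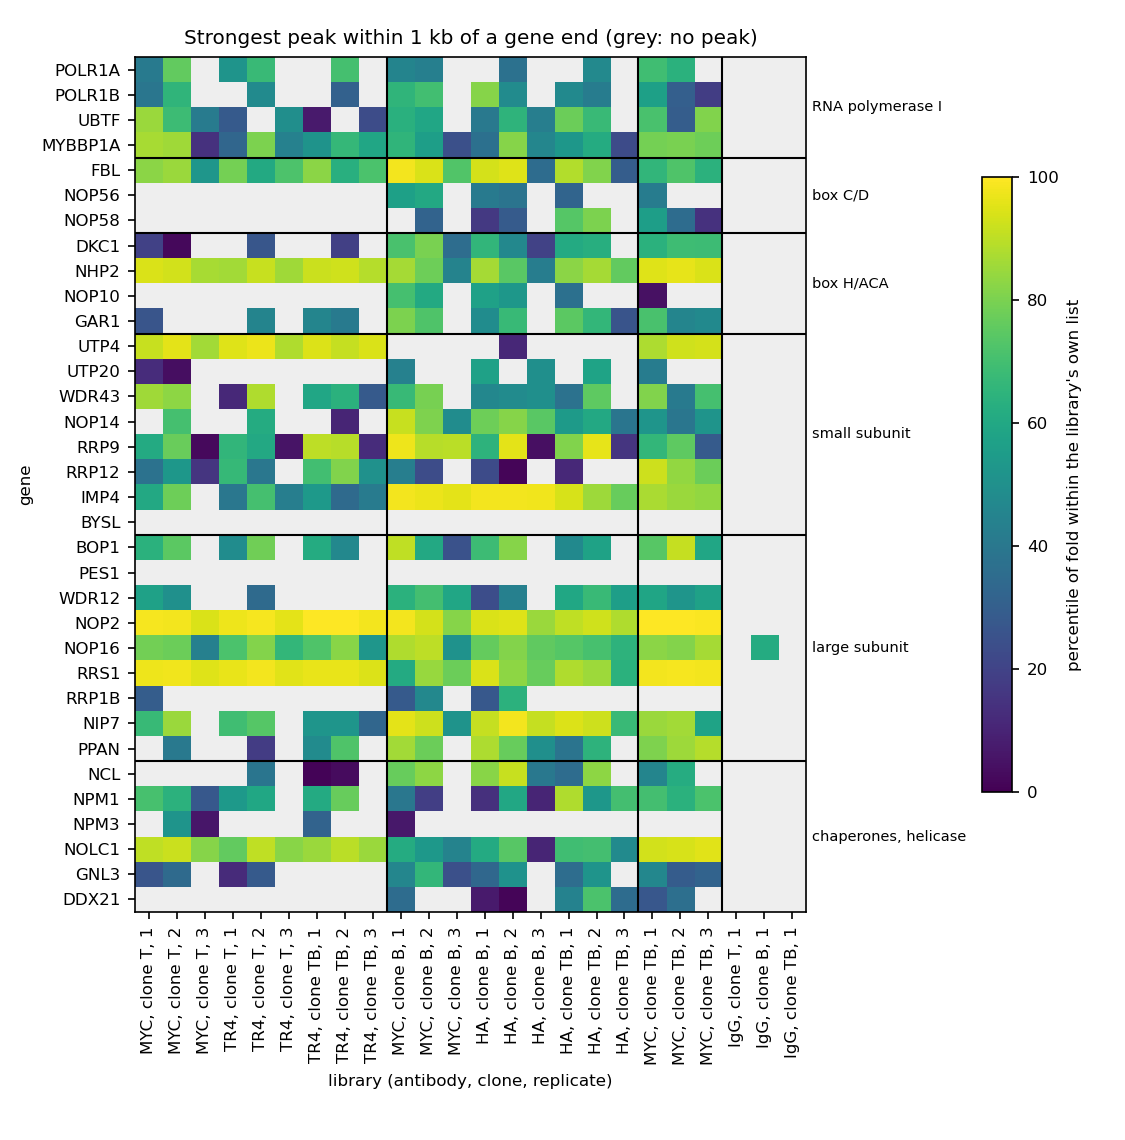
Percentile of the fold of each gene's strongest peak within that library's own list (colour, 0 to 100, grey for no peak) for the 34 genes in rows, grouped by role, and the 24 libraries in columns. NOP2, RRS1 and NHP2 are in the upper part of the list in every TR4-directed library, while UTP4 is high in all 9 TR4-directed libraries and present in 1 of the 9 BCL11A-directed ones.

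Among the 4 genes of RNA polymerase I transcription, POLR1A, the largest subunit, had peaks in 5 TR4-directed and 4 BCL11A-directed libraries. POLR1B, the second subunit, had 4 and 6, and UBTF, the factor that opens the ribosomal DNA for the polymerase, had 7 and 7. MYBBP1A had 9 and 9, with folds of 5.18 to 22.3 (median 10.2) in TR4-directed and 5.03 to 17.2 (median 8.59) in BCL11A-directed libraries. These folds are the enrichment values of the authors' peak caller, used here only to describe peaks and to rank them inside one list. Part of the UBTF signal lay at the 3′ end of its record, 14943 bases from the nearest listed start, in 14 of 21 libraries.

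The box C/D proteins were uneven. FBL had a peak in every target library, but its 2 regions with the most libraries (20 and 18 of 21) lie at the 3′ end of its record next to the start of DYRK1B, and the region at its own start was present in 14. NOP56 and NOP58, the paired scaffold proteins of the same particle, had no peak in any TR4-directed library and were found in 5 of 9 BCL11A-directed libraries each. Their difference did not pass (Benjamini-Hochberg adjusted p = 0.117 for both, Fisher's exact test).

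Of the box H/ACA proteins, NHP2 had the strongest peaks. Its folds ran from 18.5 to 44.3 (median 33.6) in the 9 TR4-directed libraries, within the 85.7 to 94.5 percentile of each list, and from 6.95 to 18.7 (median 14.4) in the 9 BCL11A-directed ones, within the 42.3 to 86.7 percentile. The percentiles of the 2 sets overlap narrowly. DKC1 (dyskerin), the pseudouridine synthase of the particle, had 4 TR4-directed and 8 BCL11A-directed libraries, GAR1 had 4 and 7, and NOP10 had 0 and 5.

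UTP4 (cirhin), a protein of the small-subunit processome, was the one member whose peaks differed between the targets in the test by gene. The MYC antibody in clone T gave folds of 30.8, 58 and 20.1 in replicates 1 to 3. The TR4 antibody gave 56.6, 70.9 and 20.4 in clone T and 49.3, 34.3 and 41.9 in clone TB. In all 9 the peak ranked at or above the 86 percentile of its list. BCL11A-directed libraries had a peak in 1 of 9, with the HA antibody in clone B (replicate 2, fold 5.27, the 11.3 percentile). The counts of 9 against 1 gave an adjusted p of 0.00716 (Fisher's exact test, two-sided, Benjamini-Hochberg over 9585 genes), and the region over the start, chr16:69132485-69132693, gave 0.00394.

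The MYC antibody itself split at UTP4 by clone. It gave a peak in 3 of 3 libraries of clone T and 3 of 3 of clone TB (folds of 21.9, 29.1 and 28.2), the clones with tagged TR4, and in 0 of 3 of clone B. Counted in bases from the start, negative upstream, summits lay at -53 to -30 in every library with the MYC or TR4 antibody in clones T and TB. The E-box printed above begins at -16 and lay inside the peak in 12 libraries, namely all 9 TR4-directed ones, 2 of MYC in clone TB and 1 of HA in clone B. The UTP4 start is 61 bases from the records of DERPC and CHTF8, so peaks of this shared promoter cannot be told apart by gene.

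A pair of members went the other way in the test by region, which merges overlapping peaks. In that direction 25.6% of all tested regions were called. NOP14, needed for processing of the small-subunit RNA, had peaks in all 9 BCL11A-directed libraries: folds of 22.8, 16.5 and 7.53 with the MYC antibody in clone B, 13.8, 17.3 and 10.4 with HA in clone B, and 8.82, 9.4 and 6.19 with HA in clone TB. It had a peak in replicate 2 alone of each TR4-directed group. The strongest had folds of 12.7 (MYC in clone T) and 10.7 (TR4 in T) over the start, and of 4.98 (TR4 in TB) in a separate region with its summit at 543 bases from the start, chr4:2962824-2962970. That region had 3 TR4-directed and 0 BCL11A-directed libraries, too few to be tested between targets. The region over its start, chr4:2963341-2963615, also holds the start of GRK4 and gave an adjusted p of 0.0328, whereas the same 3 against 9 libraries gave 0.0555 in the test by gene. With peaks of −log10 q of at least 5 alone, NOP14 was called by gene as well. The folds of the libraries with a peak overlap between the targets, so the difference tested is one of presence.

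DDX21, a nucleolar RNA helicase, had no TR4-directed peak. Its BCL11A-directed folds were 7.59, 11.3 and 5.93 with HA in clone TB, 4.46 and 4.06 in replicates 1 and 2 of HA in clone B, and 7.09 in replicate 1 of MYC in clone B. The count of 0 against 6 gave an adjusted p of 0.0328 for the region chr10:68955973-68956177 and 0.0555 by gene. The 6 folds stood between the 1.38 and the 71.7 percentile of their lists (median 35.4), and with only peaks of −log10 q of at least 5 the region's adjusted p was 0.142.

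The other small-subunit genes were not called. IMP4, of the U3 particle, had the highest mean percentile in BCL11A-directed libraries of all 34 genes (93.5, a library without a peak counting as 0), with a range of 76.7 to 98.4 and folds of 10.4 to 40 (median 22.4), and was present in 8 of 9 TR4-directed libraries at the 34.6 to 78.1 percentile. The ranges overlap through 1 library of each target, replicate 3 of HA in clone TB and replicate 2 of MYC in clone T. The region over the IMP4 start, chr2:130342620-130342937 (20 libraries), also holds the start of VMA22, so its peaks cannot be told apart by gene. RRP9 was present in all 21 target libraries, WDR43 in 7 and 7, RRP12 in 8 TR4-directed and 5 BCL11A-directed, and UTP20 in 2 and 4.

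In the large-subunit pathway the highest mean percentiles of all 34 genes in TR4-directed libraries (97.9 and 96.6) were those of NOP2, an RNA methyltransferase, and RRS1, which places the 5S particle. NOP2 folds were 39.5 to 224 (median 120) in TR4-directed and 12 to 39.3 (median 20.9) in BCL11A-directed libraries, and the percentiles were 94.5 to 99.7 and 81.8 to 98.1. With the MYC antibody in clone TB the folds were 262, 296 and 144. This peak, chr12:6555954-6556337, does not lie at the NOP2 start but at the 3′ end of the record, 11954 bases from the start and near IFFO1, whose record is 829 bases from that of NOP2. At the NOP2 start itself a smaller peak was present in 5 TR4-directed, 8 BCL11A-directed and 3 further libraries (MYC in clone TB), with folds of 3.22 to 18.9.

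RRS1 showed the same order with its peak at the record start. Its folds were 40.6 to 105 (median 72.1) in TR4-directed libraries and 8.51 to 24.2 (median 15.8) in BCL11A-directed ones, at the 94.6 to 98.2 and the 61.1 to 94.2 percentile. NIP7, a late factor of the pathway, had the opposite order of medians, the 67.2 percentile in 7 TR4-directed and the 92.2 percentile in 9 BCL11A-directed libraries, with overlapping ranges. BOP1 and WDR12, partners of PES1 in the PeBoW complex, had 6 and 7, and 3 and 8 libraries. NOP16 had 9 and 9, PPAN 4 and 7, and RRP1B 1 and 4.

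Of the chaperones and other nucleolar proteins, NPM1 (nucleophosmin) had peaks in 7 TR4-directed and 8 BCL11A-directed libraries and NCL (nucleolin) in 3 and 7. NPM3 had 3 and 1 and GNL3 (nucleostemin) 4 and 7. NOLC1 was present in all, at the 75.8 to 92.1 percentile in TR4-directed and the 10.4 to 74 percentile in BCL11A-directed libraries. How often such ranges lie apart among all genes was not counted. Percentiles were not tested, and they come from lists of unequal length, so their order cannot decide whether the targets differ.

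Over all genes, 1112 of 9585 tested (11.6%) differed between the targets: 82 (0.856%) had more TR4-directed libraries and 1030 (10.7%) more BCL11A-directed ones. Of the 34 members 32 could be tested, since only genes present in 4 or more of the 18 libraries entered, and 1 was called (UTP4, TR4-directed). Without adjustment 7 of the 32 had p under 0.05, 6 of them with more BCL11A-directed and 1 with more TR4-directed libraries, where 28.4% of all tested genes did (26.2% and 2.20%). Members with more BCL11A-directed libraries numbered 18, those with more TR4-directed libraries 4, and 10 were equal, where all tested genes had 66.6% and 14.1%. The median difference in share was -0.111 (TR4 minus BCL11A) against -0.222 for all tested genes. By region, 6747 of 24485 (27.6%) differed after adjustment and 43.4% had an unadjusted p under 0.05. More BCL11A-directed libraries were called at 25.6% and more TR4-directed ones at 2.00%. Of the 45 tested regions at members 3 were called, UTP4 with more TR4-directed and NOP14 and DDX21 with more BCL11A-directed libraries. The call for UTP4 held without each of the 18 libraries in turn.

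The direction among all genes depended on list length. At equal list lengths 1775 of 4814 genes were called (36.9%; 22.2% TR4-directed and 14.6% BCL11A-directed), of which 60.3% were higher in TR4-directed libraries, against 7.37% with the full lists. Among members 5 of 17 tested were then called, all with more TR4-directed libraries: UTP4 (9 against 0), NOLC1 (9 against 0), MYBBP1A (8 against 0), RRP12 (7 against 0) and NOP16 (9 against 3). NOP14 and DDX21 were no longer tested there. UTP4 was the one gene of the set called with the full and with the equal lists. Its call was lost when replicate 3 of every group was left out (adjusted p = 0.0878, Fisher's exact test), where the counts were 6 against 1.

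**Figure D3:**
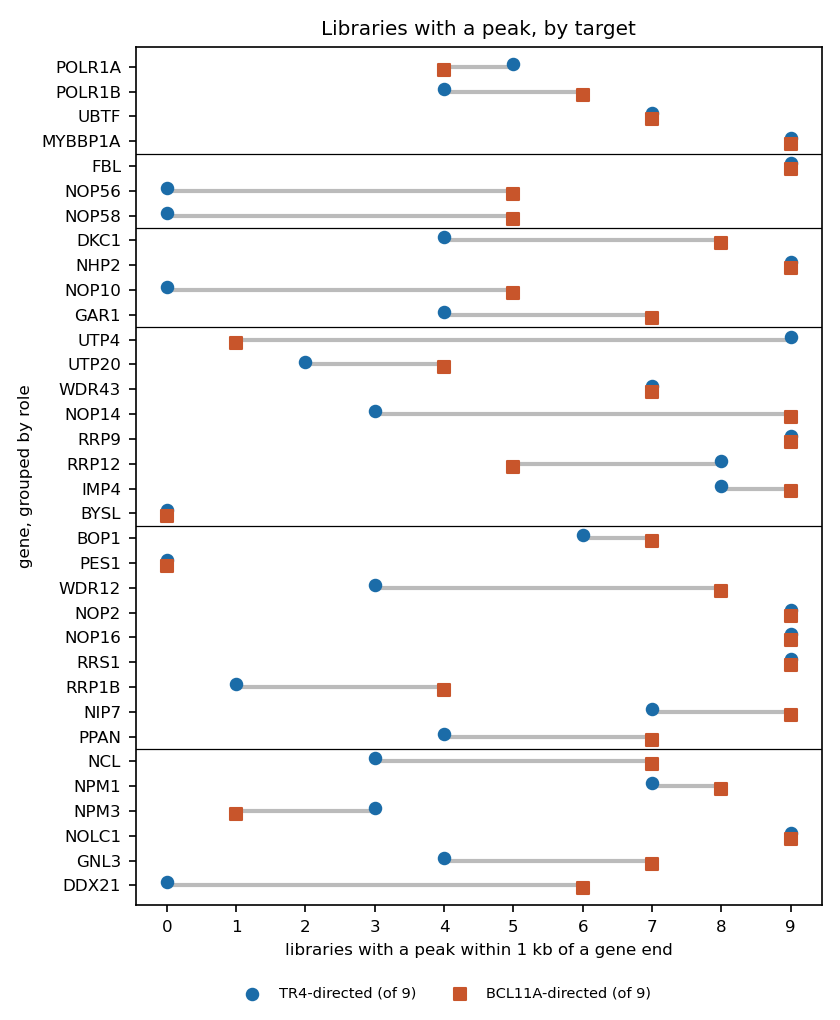
Number of libraries with a peak within 1 kb of a gene end (horizontal axis, 0 to 9) for each of the 34 genes (vertical axis, grouped by role), with TR4-directed libraries as circles and BCL11A-directed libraries as squares. UTP4 stands at 9 against 1, NOP14 at 3 against 9 and DDX21 at 0 against 6, while 8 genes stand at 9 for both.

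Calls of the other members turned on single libraries. NOP14 and DDX21 passed in the test by gene, giving 3 called members, when replicate 1 of HA in clone TB, replicate 1 or 2 of TR4 in clone TB, replicate 1 or 2 of MYC in clone T, or replicate 2 of TR4 in clone T was left out, and DDX21 alone joined UTP4 without replicate 2 of MYC in clone B. Without replicate 3 of HA in clone TB or of MYC in clone B there were 6 called members, NOP10, NOP56 and NOP58 being added, and without replicate 3 of HA in clone B there were 7, with WDR12. The number of called genes over the whole table moved with these libraries, from 1136 to 1992.

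The antibody comparison gave no call. None of 9856 genes (0.00%) differed between the MYC antibody and the other target antibodies within clones after adjustment (exact test stratified by clone, two-sided, Benjamini-Hochberg), and none of 26989 regions did. Without adjustment 127 genes (1.29%) had p under 0.05, 124 with more MYC-antibody libraries (1.26%) and 3 with fewer (0.0304%), and 0 of the 32 tested members were among them. By region 2.44% had an unadjusted p under 0.05. The WDR12 region at its start, chr2:202911610-202911740, had an unadjusted p of 0.0417, with peaks in 3 MYC-antibody and 2 HA libraries of clone B, 2 MYC-antibody libraries of clone TB and no other. The smallest p the design allows is 2.98e-05, and 6 genes at that value would have been called. The smallest p seen by gene was 0.00238. For an excess of the MYC antibody, the smallest p needs a peak in each of its libraries and in no other target library. The 8 members with a peak in all 21 target libraries could not differ in presence. For them the test cannot decide whether the MYC antibody gave more signal.

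Members were more often present with the MYC antibody, in a share close to that of all genes. The MYC share was the larger in 18 of the 32 (56.2%), the smaller in 4 (12.5%) and equal in 10, where the MYC share was larger for 56.6% of all tested genes and smaller for 1779 of 9856. The median difference in share was 0.0556 for members and 0.0556 for all genes. By clone, shares were taken over genes with a peak in either group. In clone T, MYC had more libraries than TR4 at 9 of 28 members (32.1%) and fewer at 2 (7.14%), beside 23.2% and 25.6% of all such genes. In clone B, MYC had more than HA at 5 of 32 (15.6%) and fewer at 9 (28.1%), beside 23% and 13.7%, so that the order of members and of all genes was opposite in both clones. In clone TB, MYC had more than HA at 11 of 30 (36.7%) and fewer at 1 (3.33%), beside 32% and 11.9%, and more than TR4 at 16 of 31 (51.6%) and fewer at 1 (3.23%), beside 56.4% and 2%. These differences between members and all genes were not tested. The clone TB excess covers an antibody to the tag of both proteins set against antibodies to one, and these cannot be told apart there from any other source of MYC-antibody signal.

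**Figure D4:**
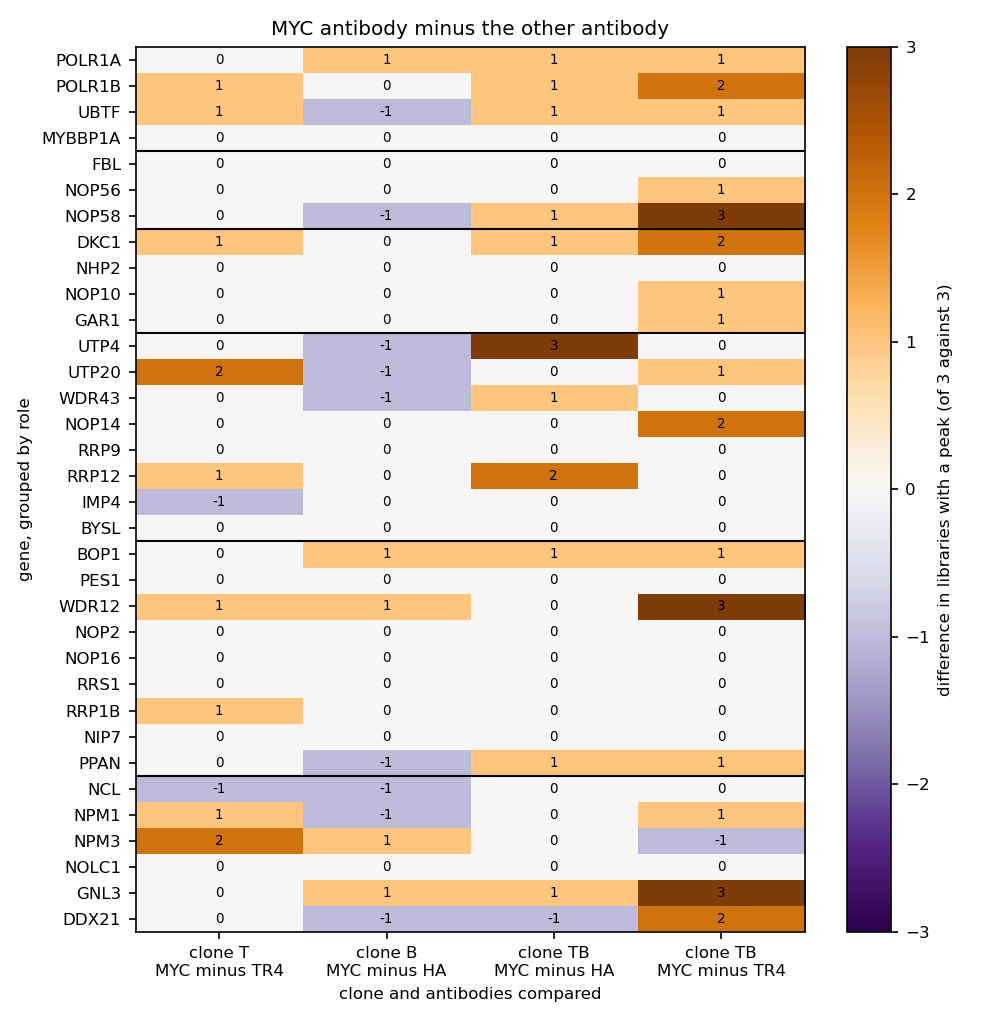
Number of MYC-antibody libraries with a peak minus that of the other antibody (colour and printed value, -3 to 3) for each of the 34 genes in rows and the 4 within-clone comparisons in columns. Positive cells are most frequent in clone TB against TR4, at 16 genes, where 56.4% of all genes with a peak in either group were positive. In clone B against HA negative cells (9) outnumber positive ones (5), where all genes had 13.7% negative and 23% positive.

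The 6 members with the largest excess were WDR12, GNL3, DKC1, NPM3, POLR1B and BOP1, the last tied with RRP12 and POLR1A (mean difference in share 0.222 each). WDR12 was present in 8 of 9 MYC-antibody and 6 of 12 other libraries (mean difference in share 0.389, p = 0.16 by the exact test, adjusted p = 1). In 14 libraries a peak lay in chr2:202912131-202912690, outside the window printed above. That region holds the start of CARF and lies 458 bases from the start of WDR12, so the excess cannot be assigned to WDR12 alone. The folds counted for WDR12 with the MYC antibody were 9.37 and 8.56 in clone T (replicates 1 and 2), then 10.9, 13 and 8.45 for clone B, and 10.4, 8.99 and 9.45 for clone TB. The other antibodies gave 7.12 in 1 library of TR4 in clone T, none with TR4 in clone TB, 5.92 and 8.45 with HA in clone B and 9.49, 10.5 and 7.68 with HA in clone TB. The MYC antibody thus missed 1 library and the TR4 antibody 5 of 6, with HA present in 5 of 6.

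GNL3 had 8 of 9 against 6 of 12, with MYC-antibody folds of 5.73 to 12 in clone B, 5.94 and 6.93 in clone T and 6.42 to 8.52 in clone TB, and folds of 5.85 to 9.52 with the other antibodies. The GNL3 regions each hold the start of PBRM1, so this excess cannot be assigned to GNL3 alone. DKC1 had 8 of 9 against 7 of 12, with MYC-antibody folds from 3.88 in clone T to 16.2 in clone B, and folds of 5.45 to 10.8 with the other antibodies. POLR1B had 7 of 9 (folds of 5.5 to 12.8) against 6 of 12 (6.86 to 15.1), and BOP1 8 of 9 (5.75 to 26) against 8 of 12 (8.02 to 17.1). The folds of MYC and other antibodies overlapped at GNL3, DKC1, POLR1B and BOP1. NPM3 was rare throughout, with 3 of 9 (folds of 8.87, 4.56 and 4.37) against 1 of 12 (6.77). No member had peaks in MYC-antibody libraries alone. Within clone TB, 1 of the 30 members with a peak for MYC or HA, UTP4, was found with MYC in 3 libraries and with HA in 0, as were 2.22% of all genes with such a peak. Likewise 3 of 31, WDR12, GNL3 and NOP58, were found with MYC in 3 and TR4 in 0, as were 10.5% of all genes. Each of these members had peaks with another antibody elsewhere.

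The excess of the MYC antibody was also set beside the E-box in the promoter. The 13 tested members with one had a median difference in share of 0 (46.2% with a larger MYC share), and the 13 without one had 0.0556 (61.5%), while all genes of the table had 0.0556 with and without the motif. NOP2, FBL, RRP9 and MYBBP1A, with the motif, and NOP16 and NHP2, without it, had a peak in all 21 target libraries and could not differ. At NOP2 and FBL the most frequent peaks lay at the 3′ end of the record, away from that promoter. The medians therefore cannot decide whether the excess goes with the motif. The motif itself lay under peaks of other antibodies too: the upstream E-box of IMP4, at -203 from the start, was inside a peak in 8 of 9 MYC-antibody and 10 of 12 other libraries, that of RRP9 in 6 and 8, and that of MYBBP1A in 6 and 5. At NOP14 the counts were 5 and 3. The E-boxes of BYSL, GAR1 and DDX21 lay under no peak, those of GAR1 and DDX21 being in the window of the gene's second start. These counts over few genes are descriptions, with no test.

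**Figure D5:**
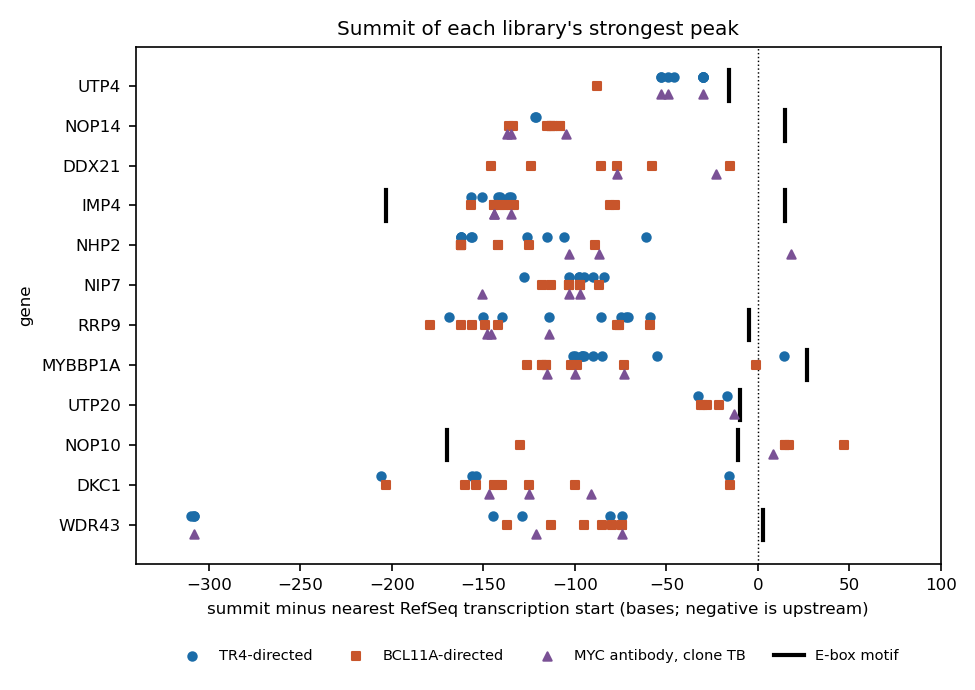
Position of the summit of each library's strongest peak relative to the nearest RefSeq transcription start (horizontal axis, bases, negative upstream) for 12 genes in rows, with circles for TR4-directed, squares for BCL11A-directed and triangles for MYC-antibody libraries of clone TB. Black bars show where an E-box begins in the window of a gene's first listed start. Summits gather upstream of the start at most genes, with medians of -98 bases for NIP7 and -46 bases for UTP4, while NOP10 has a median of 15 bases. In addition, 2 summits of IMP4 and 1 of NOP14 fall outside the frame.

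Summits of both targets lay mostly close to the starts of these genes. Relative to the nearest start, the median was -94 bases over 138 TR4-directed peaks and -108 bases over 179 BCL11A-directed peaks, and 63.8% and 74.3% lay within 250 bases of the start. Members also shared features of position. Another protein-coding gene ends or begins within 1 kb of 21 of the 34 (61.8%, against 30.6% of all genes), and 8 carry a small nucleolar RNA gene inside their record (23.5%, against 2.63%). Member regions whose own gene has a listed start were set against the starts of the promoter table alone. Of these regions, 15 hold only the member's start and 9 that of a neighbour as well. Peaks of those 9, at NOP14, NOP16, NOP10, RRP9, UTP4, GNL3, NIP7, PPAN and IMP4, cannot be told apart by gene. A further 14 lie nearer to the member's start than to any other listed one, and 11 nearer to the start of another gene. Neighbours without an entry were not counted. The 14 thus include the NOP2 region near IFFO1, 11954 bases from the NOP2 start, and also the NOP16 region with an IgG peak alone.

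Other genes of the same pathway were counted in the same way. Of all protein-coding genes, 27.2% had a peak in at least 2 of 3 MYC-antibody libraries of clone T and 44.8% in those of clone B. Of 13 further RNA polymerase I genes, 8 had a peak in at least 2 of 3 MYC-antibody libraries of clone T and 9 in those of clone B, and 2 were called, TAF1A and TTF1, both 9 against 1 as at UTP4 (adjusted p = 0.00716, Fisher's exact test). Of 35 further small-subunit genes, 20 and 29 had such peaks, and 2 of 30 tested were called in opposite directions: WDR46 with 9 TR4-directed libraries against 0 (adjusted p = 0.00205, Fisher's exact test) and WDR75 with 2 against 9 (adjusted p = 0.0222). Of 41 further large-subunit genes, 24 and 27 had them and 0 of 29 tested were called. With the TR4 antibody in clone T and HA in clone B (25.5% and 42.5% of all genes) the counts for RNA polymerase I were 7 and 8. For the further small-subunit genes they were 18 and 23, and for the large-subunit genes 18 and 23. In the RNA polymerase I list POLR1D and TCOF1 had 20 of 21 libraries and no gene had 21. In the small-subunit list 4 genes had all 21, DIMT1 and EMG1 among them, and in the large-subunit list 2 did, SENP3 and WDR74. All these adjusted values cover the whole gene table, where 0.856% of tested genes were called with more TR4-directed and 10.7% with more BCL11A-directed libraries.

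Among genes known as MYC partners or as other MYC targets, 0 were called between antibodies. In the MYC and MAX network, 7 of 12 genes had a peak in clone T (27.2% of all genes) and 10 in clone B (44.8%) by the same measure. MXD1 was present in all 21 libraries and MNT in 20. Among 25 MYC targets outside the ribosome pathway the counts were 14 and 23, CDK4 and EIF4A1 had a peak in all 21 libraries, and 2 were called for targets, TYMS (1 against 8) and CCND2 (0 against 7). With the TR4 antibody in clone T and HA in clone B (25.5% and 42.5% of all genes) the counts were 17 and 24 for these targets and 6 and 10 for the network. The median difference in share between antibodies was 0.0556 for the network, 0 for the targets and 0.111 for the RNA polymerase I list. Erythroid markers had peaks at 7 of 10 genes in each BCL11A-directed group (39.3% to 44.8% of all genes) and at 3 of 10 in each TR4-directed group (25.5% to 28.0%). EPOR was present in all 21 libraries and AHSP in 20, while GATA1 and SLC4A1 (0 against 9 each) and TAL1 (1 against 9) were called. In that direction 10.7% of all tested genes were called. Markers of other cell types had 0 of 12 in 6 groups and 1 of 12 with HA in clone B, CD14 and COL1A1 being present in 3 libraries each.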

How the data were processed

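Each of the 24 libraries has 1 deposited peak list on GRCh38. The tools named in the submitters' processing notes are MACS2 2.1.4, SAMtools, Picard, Bowtie2 and Trimmomatic; their settings and roles are not given in the sources used here. Per the labels, CUT&RUN was measured. Each deposited line gives a fold (a ratio of enrichment), −log10 p and −log10 q values from the authors' peak caller, and a summit offset. The depth of sequencing is unknown, and the length of each list is given in its place. Lowest −log10 q values were 2.00 to 2.05.

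Peaks were joined to RefSeq genes within 1 kb of either record end, with Python 3.11.15, numpy 2.4.6, pandas 2.3.3, scipy 1.17.1 and matplotlib 3.10.9. Targets were compared by a two-sided Fisher's exact test (9 against 9 libraries, genes present in 4 or more of the 18), antibodies by an exact test stratified by clone (at least 4 of 21), both with Benjamini-Hochberg adjustment over all genes at 0.05. The same tests were run on regions merged from overlapping peaks (at least 1 base) without an IgG peak. The tests were tested on simulated data. Same-numbered MYC and HA libraries of clone B deviated together (correlations of 0.22 to 0.53, each highest with its own number).

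The members, the further RNA polymerase I, small-subunit and large-subunit genes, the MYC network, other MYC targets, erythroid markers and other-cell markers were chosen with earlier results of these data known. Values are given by library or range for members called in a test, the 6 with the largest MYC-antibody excess, the 4 highest in mean percentile for each target, and members without a peak; for other lists, for up to 2 genes with the most libraries. Called genes of the other lists were named after their values were seen. The values of 1 gene of these lists are not reported here. Alternatives covered the window, −log10 q of at least 5, equal list lengths, the filter, IgG regions, the overlap, strata, replicate blocks and each library left out. Windows at transcription starts, leaving out replicate 3 of every group, and leaving out each library by region were chosen after seeing the data.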

Additional observations from a re-analysis of the deposited data

Results flagged for a closer look

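PES1, the scaffold of the PeBoW complex of the large subunit, and BYSL (bystin), a factor of the small subunit, had no peak at the ends of their records but had peaks at their transcription starts, which the gene-end windows do not cover. The starts listed for PES1 and BYSL lie 15103 and 11547 bases from the nearest record end. Within 1 kb of the PES1 start, 12 of 21 target libraries had a peak: all 3 of TR4 in clone TB, 2 of each BCL11A-directed group and all 3 of MYC in clone TB, with folds of 5.18 to 13.8. Neither group of clone T had one. At the BYSL start 17 of 21 libraries had a peak, 7 TR4-directed, 7 BCL11A-directed and 3 of MYC in clone TB, with folds of 4.56 to 14.7. No IgG library had a peak at either start. The targets did not pass the test at either gene (adjusted p = 0.688 for PES1 and 1 for BYSL, Fisher's exact test).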

How the results depend on the processing

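The direction between targets reversed at equal list lengths: TR4-directed libraries were the more frequent in 7.37% of called genes with full lists and in 60.3% with equal lists, and the order of the targets' member counts turned with it. For the targets by gene, −log10 q of at least 5 gave 1696 calls (members NOP14 and UTP4), equal list lengths 1775 (1071 with more TR4-directed libraries, 704 with fewer) and leaving out replicate 3 of every group 711, with 0 members called. Leaving out single libraries gave 1136 to 1992. By region, equal lengths gave 3082 calls (1597 and 1485) and single libraries left out 7694 to 9611. For antibodies, 0 genes and 0 regions were called under every alternative run. With equal list lengths the member counts were 13 for MYC in clone T, 12 for TR4 in T and 12 for TR4 in TB. They were 7 for MYC in B, 6 for HA in B, 6 for HA in TB and 10 for MYC in TB. With all 3 libraries required they were 12 for MYC in T (13.3% of all genes), 10 for TR4 in T (15.1%) and 13 for TR4 in TB (19.3%). The others were 15 for MYC in B (28%), 17 for HA in B (26.2%), 15 for HA in TB (26.7%) and 24 for MYC in TB (36.7%). Leaving out 1 library gave 12 to 22 for MYC in T, 10 to 17 for TR4 in T, 13 to 18 for TR4 in TB, 15 to 27 for MYC in B, 17 to 28 for HA in B, 15 to 24 for HA in TB and 24 to 27 for MYC in TB. The cause of these moves was not tested.

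Same-numbered libraries deviated together in clone B (MYC and HA). Over all 13 group pairs the same-number correlations ran from -0.01 to 0.53, and in no other pair were all 3 over 0.1, so the groups of the target comparison were not taken as paired. One pair of that comparison, TR4 in clone TB and MYC in clone B, did have all 3 libraries highest with their own number (correlations of 0.06 to 0.15). With replicate number as a block, 1268 genes (members NOP14 and UTP4) and 6909 regions were called between targets, and 0 between antibodies, so the block changed no antibody call. Depth is unknown, so a missing peak may be one not detectable in a short list.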
